A study of Mus musculus with 10 samples.

Results

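Glycolysis and hypoxia-response genes were followed in organoids of mouse colon, cultures of epithelial cells that start from crypts. The set was a named list of 37 genes, and 35 of them could be matched by gene symbol to a probe set of the array, out of 18820 distinct symbols tested. It held 15 glycolytic enzymes (13 measured), 6 carriers and regulators of glycolytic flux (6 measured) and 16 hypoxia-response genes (16 measured). The expression of Gpi1 and Eno1 was not analysed here, and both entered only the promoter counts. For 26 genes 1 probe set carried the symbol alone, and for 9 genes with several such probe sets the one with the highest mean over the 10 arrays was used. No probe set used for a member carried a second symbol.

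Male mice of C57BL/6J background gave all the organoids. Knockout (KO) mice were homozygous for Pparg with loxP sites around exons 1 and 2 and carried Cre recombinase driven by the villin promoter, which is active in intestinal epithelium, and wild-type (WT) littermates served for comparison. The 4 groups were KO organoids given 1 µM rosiglitazone for 24 h (replicates 1, 2 and 3, from mice 46, 45 and 44), KO organoids given vehicle (0.1% DMSO; replicates 1 and 2, from mice 46 and 44), WT organoids given rosiglitazone (replicates 1, 2 and 3, from mice 48, 42 and 47) and WT organoids given vehicle (replicates 1 and 2, from mice 42 and 47). Values are given in this order of replicates throughout. Each array thus stands for the organoids of 1 mouse, and mouse 45 (KO) and mouse 48 (WT) gave a rosiglitazone array and no vehicle array.

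Glycolysis splits glucose into pyruvate in the cytosol. When oxygen is short, hypoxia-inducible factor (HIF) escapes the hydroxylation that otherwise leads to its breakdown, binds a short DNA motif and raises transcription of glycolytic enzymes and of genes for blood vessel growth, mitophagy, acid balance and collagen modification. Colonocytes normally live at low oxygen, and PPARγ, the receptor that rosiglitazone activates, is a regulator of lipid and energy metabolism in this epithelium. The study asked which genes the drug moves in colonic epithelium and which of these changes need PPARγ.

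Promoters of the hypoxia-response genes were searched for the motif through which HIF acts, and 5 are printed because they belong to 4 of the genes that differed most between arrays and to Hif1a, which did not. Each is the 250 bases before the most 5′ start of the gene in RefSeq (build GRCm38.p6), read 5′ to 3′ on the gene's strand, with the HIF core motif ACGTG or GCGTG, searched on both strands, in capitals. Adm lies at chr7:110627407-110627656 on the plus strand, Vegfa at chr17:46032378-46032627 on the minus strand, Ero1l at chr14:45318573-45318822 on the minus strand, Ankrd37 at chr8:45999851-46000100 on the minus strand and Hif1a at chr12:73907617-73907866 on the plus strand.
Adm: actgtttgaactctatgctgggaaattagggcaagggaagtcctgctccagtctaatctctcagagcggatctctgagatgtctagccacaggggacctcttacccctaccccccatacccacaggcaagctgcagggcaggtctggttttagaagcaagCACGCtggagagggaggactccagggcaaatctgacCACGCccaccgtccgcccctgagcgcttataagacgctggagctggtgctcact
Vegfa: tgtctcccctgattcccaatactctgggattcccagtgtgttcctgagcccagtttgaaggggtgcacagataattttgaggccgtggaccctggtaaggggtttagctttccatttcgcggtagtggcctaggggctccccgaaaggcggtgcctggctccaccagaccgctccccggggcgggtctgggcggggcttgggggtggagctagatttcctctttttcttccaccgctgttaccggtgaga
Ero1l: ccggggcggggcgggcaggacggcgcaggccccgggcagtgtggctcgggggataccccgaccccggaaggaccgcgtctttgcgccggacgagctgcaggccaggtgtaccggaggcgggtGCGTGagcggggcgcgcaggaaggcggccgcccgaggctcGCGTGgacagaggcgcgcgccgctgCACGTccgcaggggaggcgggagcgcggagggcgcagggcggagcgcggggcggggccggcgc
Ankrd37: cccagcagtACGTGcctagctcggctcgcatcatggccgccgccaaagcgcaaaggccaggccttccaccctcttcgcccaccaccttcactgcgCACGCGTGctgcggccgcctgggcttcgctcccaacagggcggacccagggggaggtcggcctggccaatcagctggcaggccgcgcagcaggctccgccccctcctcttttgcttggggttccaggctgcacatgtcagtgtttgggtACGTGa
Hif1a: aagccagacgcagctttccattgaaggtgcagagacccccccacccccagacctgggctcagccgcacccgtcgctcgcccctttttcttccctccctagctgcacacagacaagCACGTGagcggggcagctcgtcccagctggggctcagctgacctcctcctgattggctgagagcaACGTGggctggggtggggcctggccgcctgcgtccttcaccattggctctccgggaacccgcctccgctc
The windows of Adm, Ero1l, Ankrd37 and Hif1a held 2, 3, 4 and 3 motif matches, overlapping ones counted apart. That of Vegfa held 0, while a second RefSeq window of this gene, not printed, held 2. Of the 14 hypoxia-response genes with a RefSeq window, 12 had a match (85.7%), as had 10 of 15 glycolytic enzymes (66.7%) and 6 of 6 carriers and regulators (100%), against 38.6% of 27025 genes. Over any window of a gene the counts were 14, 13 and 6, against 41.5% of all genes. The windows of hypoxia-response genes were richer in G and C (median 68.6%) than those of enzymes (58.4%) and of all genes (52%), and both motifs contain a CG. A match describes these letters and does not show that HIF binds there.

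Pparg itself was read by 1 probe set, and it gave 8.78, 7.37 and 8.41 in KO rosiglitazone and 8.58 and 8.47 in KO vehicle arrays, against 8.30, 7.59 and 7.93 in WT rosiglitazone and 8.35 and 8.41 in WT vehicle arrays. The values of the arrays labelled knockout and wild type overlapped. Where this probe set lies relative to exons 1 and 2 is not known here, and it does not check the genotype labels. Of 8 epithelial markers, 7 had means of 7.43 or more on the log2 scale and Cdx1 was dim (mean 4.55), and the list mean ran from 9.29 to 9.68 over the 10 arrays. Markers of fibroblasts, endothelium and muscle were dim, with gene means of at most 3.99, and of 5 leukocyte markers Cd68 alone was bright (mean 7.86). All values are log2 RMA expression, on which a difference of 1 is a 2-fold change, and levels are not compared between genes because each probe set has its own response.

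No glycolysis or hypoxia-response gene passed the test in any of the 5 comparisons (limma, Benjamini-Hochberg adjusted p under 0.05 over 23099 probe sets). In KO organoids 0 of 35 members were called for rosiglitazone against vehicle, against 0% of all probe sets. In WT organoids it was 0 of 35, against 0%, for the difference between these responses 0 of 35, against 0%, and for KO against WT in vehicle 0 of 35, against 0%. For KO against WT in rosiglitazone it was 0 of 35, against 0.0216% of all probe sets (5 of 23099). In the same order of comparisons, 0, 0, 0, 1 and 1 of the members had an unadjusted p under 0.05 (706, 229, 536, 1314 and 1110 of all probe sets). With the mouse as a random block 0 members were called in any comparison. The 2 members at an unadjusted p under 0.05 were Higd1a and Ndrg1.

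The hypoxia-response genes departed farthest from their mean in 1 array, that of mouse 45 (KO rosiglitazone replicate 2), a pattern noticed after the values were seen. This array was the lowest of the 10 arrays for 14 of 16 hypoxia-response genes, 9 of 13 glycolytic enzymes and 4 of 6 carriers and regulators, against 14.3% of all tested probe sets. For 12 of 16 hypoxia-response genes, 3 of 13 enzymes and 2 of 6 carriers and regulators, its distance below the next lowest array exceeded the whole range of the other 9, against 139 of 23099 probe sets (0.602%). Its median difference from the median of the other arrays was -0.90 for hypoxia-response genes, -0.42 for enzymes, -0.62 for carriers and regulators and -0.03 for all probe sets. These are bulk samples, in which fewer cells of a type and less RNA per cell cannot be told apart.

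**Figure D1:**
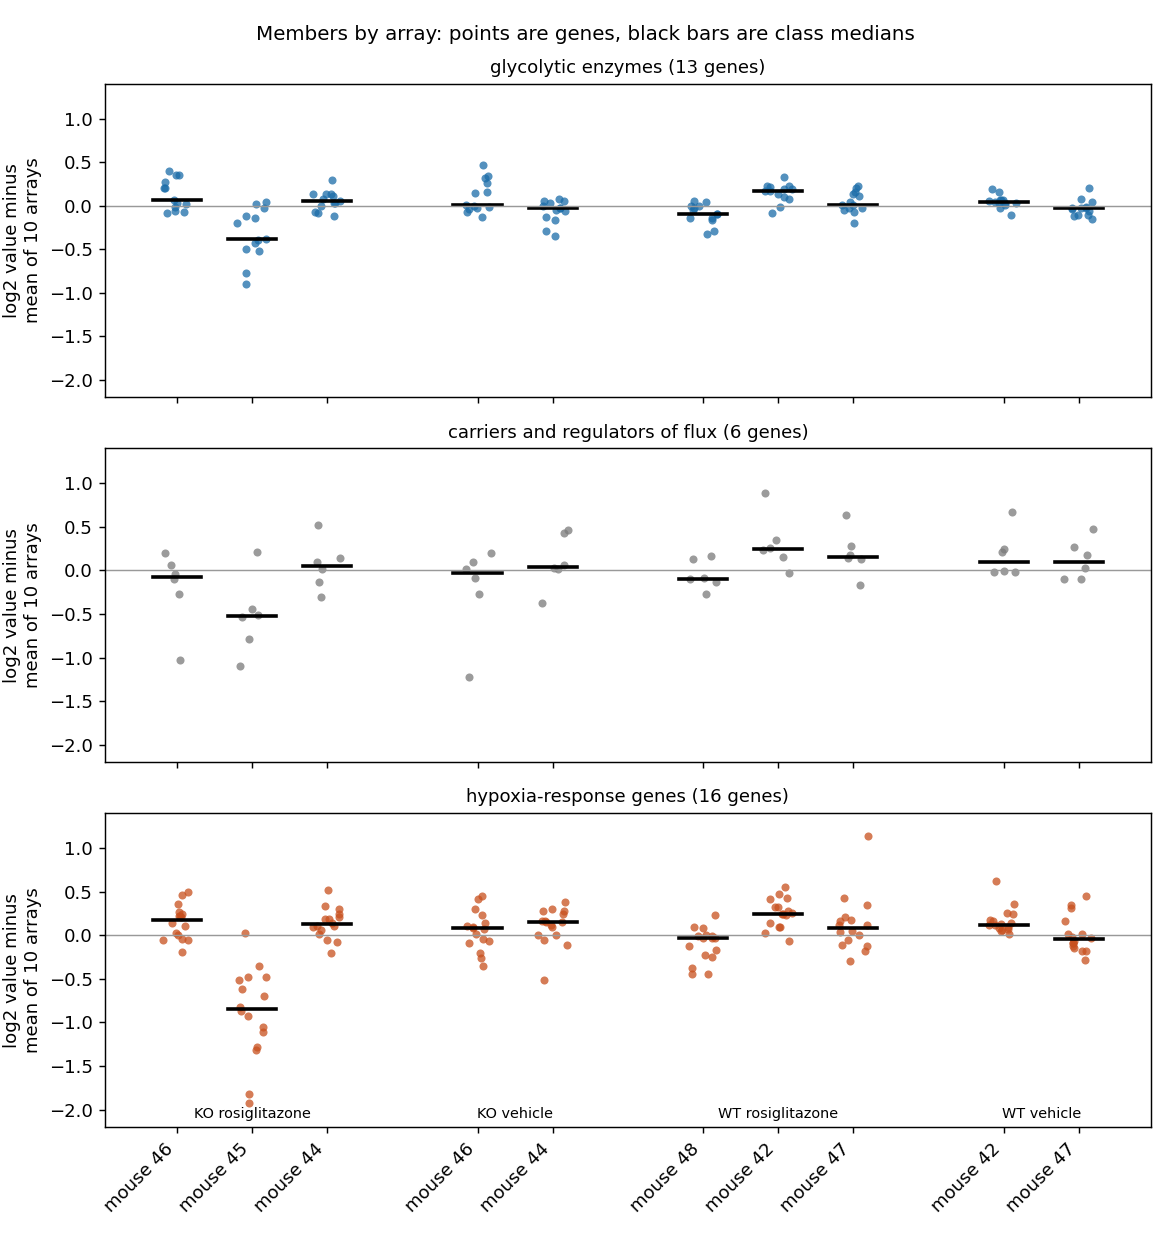
Log2 value of each member minus its mean over the 10 arrays, by array and class. Points are genes and bars class medians. In the array of mouse 45 the medians were -0.38, -0.52 and -0.85 for the 3 classes from top to bottom, and in the other arrays the medians of hypoxia-response genes lay between -0.05 and 0.25.

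The hypoxia-response genes farthest below the others in that array were Adm, Ndrg1, Vegfa and Ero1l. Adm, which encodes the vasodilator peptide adrenomedullin, read 6.61, 4.77 and 7.10 in KO rosiglitazone and 6.83 and 6.89 in KO vehicle arrays, against 6.14, 7.01 and 6.70 in WT rosiglitazone and 6.95 and 6.90 in WT vehicle arrays. The array of mouse 45 stood at -2.12 relative to the median of the other 9, or 4.34-fold lower. Of the other KO rosiglitazone arrays, replicate 1 was the second lowest of those 9 and replicate 3 the highest. Ndrg1, a stress-induced gene linked to differentiation, read 8.53, 6.80 and 8.87 in KO rosiglitazone and 8.46 and 9.10 in KO vehicle arrays, against 8.47, 9.20 and 9.86 in WT rosiglitazone and 8.86 and 9.06 in WT vehicle arrays. Mouse 45 was again lowest (4.19-fold below the median of the others), and WT rosiglitazone replicate 3 was highest. Vegfa, the vascular endothelial growth factor, read 8.41, 6.83 and 8.09 in KO rosiglitazone and 8.24 and 8.26 in KO vehicle arrays, against 8.11, 8.40 and 8.57 in WT rosiglitazone and 8.23 and 8.30 in WT vehicle arrays. The other 9 arrays spanned 0.48, and mouse 45 lay 1.27 below the lowest of them. Ero1l (Ero1a), an oxidase that forms disulfide bonds in the endoplasmic reticulum, read 10.93, 9.14 and 10.73 in KO rosiglitazone and 10.85 and 10.71 in KO vehicle arrays, against 10.05, 10.52 and 10.46 in WT rosiglitazone and 10.54 and 10.34 in WT vehicle arrays. The array of mouse 45 was 2.64-fold below the median of the others, and the other KO arrays were the 4 highest.

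Further hypoxia-response genes, among them those of oxygen sensors, mitophagy receptors and collagen hydroxylases, were mostly low in that array too. Ankrd37, an ankyrin-repeat gene known as a HIF target, read 6.83, 5.48 and 6.92 in KO rosiglitazone and 6.72 and 6.47 in KO vehicle arrays, against 6.68, 6.62 and 6.75 in WT rosiglitazone and 6.83 and 6.56 in WT vehicle arrays. Mouse 45 stood 1.00 below the lowest other array. Egln3, one of the prolyl hydroxylases that mark HIF for breakdown, read 9.42 there against 10.24 to 10.72 in the others. Egln1, the main such hydroxylase, read 8.27, 7.39 and 7.83 in KO rosiglitazone and 8.21 and 7.92 in KO vehicle arrays, against 7.91, 8.19 and 7.73 in WT rosiglitazone and 7.92 and 7.73 in WT vehicle arrays. Mouse 45 was lowest by 0.34, less than the range of the other arrays (0.54). Bnip3, a mitophagy receptor, read 8.30, 7.43 and 8.45 in KO rosiglitazone and 8.28 and 8.63 in KO vehicle arrays, against 8.58, 8.67 and 8.47 in WT rosiglitazone and 8.46 and 8.22 in WT vehicle arrays. P4ha1, a subunit of the enzyme that hydroxylates collagen prolines, read 9.02, 7.69 and 8.62 in KO rosiglitazone and 9.01 and 8.70 in KO vehicle arrays, against 8.38, 8.49 and 8.49 in WT rosiglitazone and 8.68 and 8.46 in WT vehicle arrays. For both, mouse 45 was the lowest array by more than the range of the others. The KO and WT vehicle arrays overlapped for Bnip3, and for P4ha1 the KO vehicle arrays were above the WT ones. P4ha2, Car9 (a carbonic anhydrase at the cell surface), Mxi1 (a MYC antagonist) and Bnip3l, the paralogue of Bnip3, also lay below the other arrays by more than their range, at -0.88, -0.79, -0.70 and -0.41 relative to the median. A second, dimmer Mxi1 probe set (mean 4.29) stood at -0.13. Ddit4, an inhibitor of mTOR signalling, was lowest there by less than that range.

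Hif1a, the oxygen-regulated subunit of HIF, did not share the pattern. It read 8.75, 8.83 and 8.91 in KO rosiglitazone and 8.60 and 8.96 in KO vehicle arrays, against 8.80, 9.05 and 8.70 in WT rosiglitazone and 8.85 and 8.63 in WT vehicle arrays. Mouse 45 lay at 0.03 relative to the median of the others, inside their range of 0.45, and the 4 groups overlapped. Higd1a, a mitochondrial protein gene, was the other hypoxia-response gene for which mouse 45 was not lowest.

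**Figure D2:**
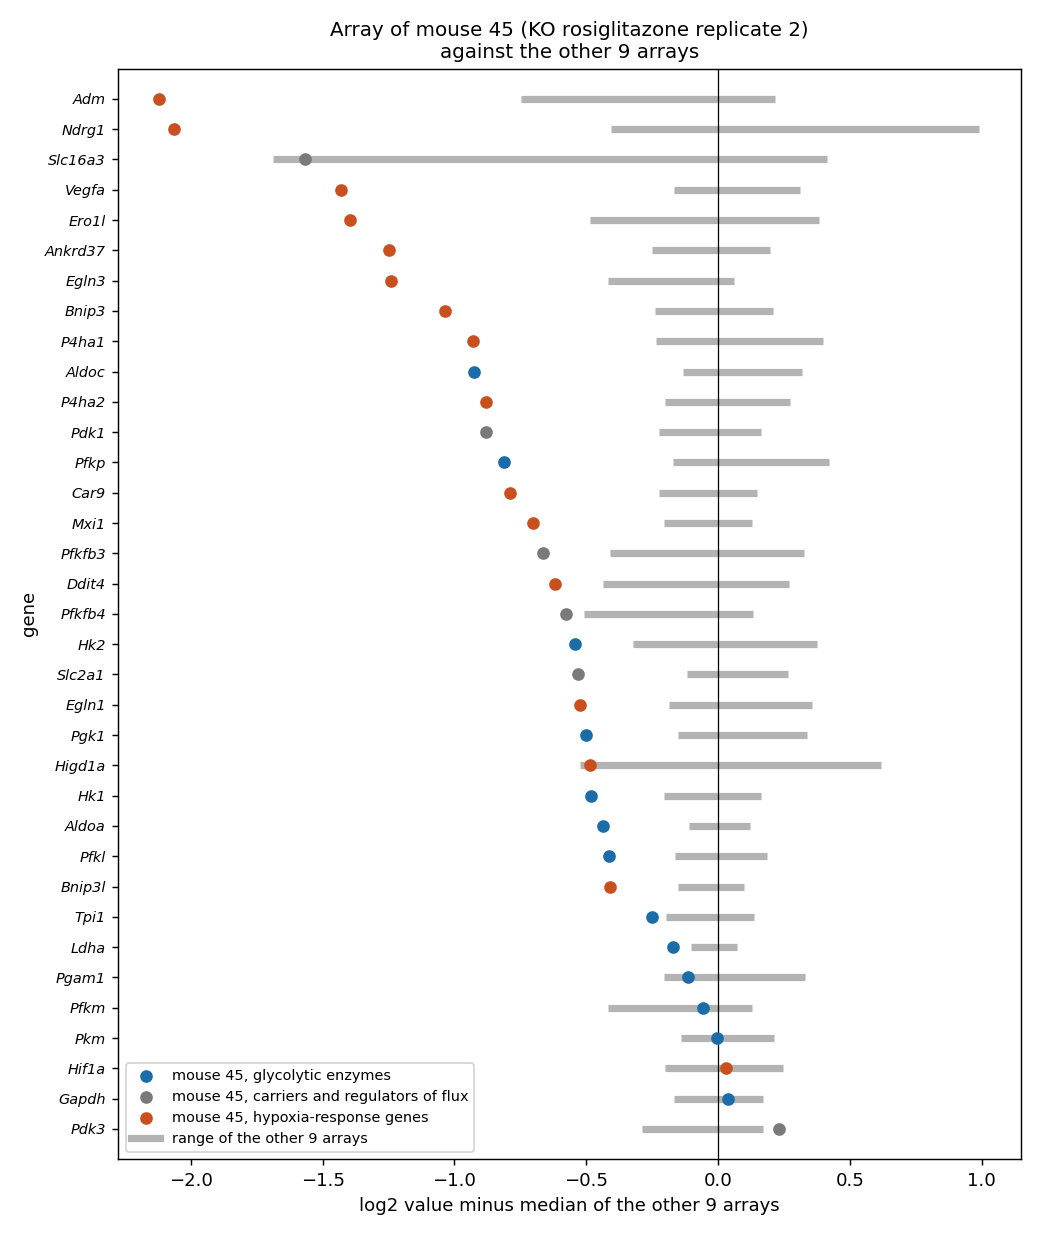
Position of the mouse 45 array (points, coloured by class) relative to the median of the other 9 arrays, in log2 units, with the range of those arrays as grey bars. Adm (-2.12) and Ndrg1 (-2.07) lay farthest below, and Hif1a, Gapdh and Pkm lay within the range.

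Glycolytic enzymes split in that array. Aldoc, Pfkp and Aldoa lay below the other arrays by more than their range. Aldoc, a brain-type aldolase, was 1.90-fold below the median of the others (8.46 against 9.26 to 9.71). Pfkp, the platelet-type phosphofructokinase, read 9.38, 8.26 and 9.13 in KO rosiglitazone and 9.49 and 8.90 in KO vehicle arrays, against 8.93, 8.95 and 9.25 in WT rosiglitazone and 8.92 and 9.07 in WT vehicle arrays. Both KO arrays of mouse 46 were the highest and mouse 45 the lowest, so KO arrays were at both ends. Aldoa, the main aldolase, read 11.94, 11.56 and 11.89 in KO rosiglitazone and 12.11 and 11.98 in KO vehicle arrays, against 11.99, 12.03 and 12.12 in WT rosiglitazone and 12.02 and 11.93 in WT vehicle arrays. The KO rosiglitazone arrays lay below all KO vehicle and WT rosiglitazone arrays and overlapped the WT vehicle arrays.

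Hk1, Hk2, Pfkl, Pgk1, Tpi1 and Ldha were also lowest in mouse 45, by less than the range of the others. Hk1, the hexokinase that traps glucose in the cell, read 9.59, 8.95 and 9.52 in KO rosiglitazone and 9.35 and 9.47 in KO vehicle arrays, against 9.35, 9.60 and 9.35 in WT rosiglitazone and 9.44 and 9.23 in WT vehicle arrays. Pfkl, the liver-type phosphofructokinase, read 9.38, 8.98 and 9.49 in KO rosiglitazone and 9.23 and 9.42 in KO vehicle arrays, against 9.31, 9.58 and 9.47 in WT rosiglitazone and 9.40 and 9.34 in WT vehicle arrays. Without mouse 45 the KO and WT arrays overlapped for both, and the remaining KO rosiglitazone arrays lay above the KO vehicle arrays for Hk1. Ldha, the lactate dehydrogenase subunit that favours lactate formation, read 12.13, 12.05 and 12.22 in KO rosiglitazone and 12.12 and 12.13 in KO vehicle arrays, against 12.24, 12.29 and 12.23 in WT rosiglitazone and 12.22 and 12.26 in WT vehicle arrays. The KO and WT arrays overlapped by a single KO reading (replicate 3 in rosiglitazone), and all 10 arrays lay within 0.24.

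The remaining enzymes stayed within the range of the other arrays in mouse 45. Pkm, the pyruvate kinase of most tissues, read 10.35, 10.29 and 10.20 in KO rosiglitazone and 10.29 and 10.16 in KO vehicle arrays, against 10.32, 10.49 and 10.29 in WT rosiglitazone and 10.51 and 10.30 in WT vehicle arrays. Both KO vehicle arrays lay below both WT vehicle arrays, and the rosiglitazone arrays overlapped. Pfkm, the muscle-type phosphofructokinase, read 6.67, 6.48 and 6.54 in KO rosiglitazone and 6.62 and 6.12 in KO vehicle arrays, against 6.14, 6.60 and 6.39 in WT rosiglitazone and 6.44 and 6.67 in WT vehicle arrays. KO vehicle replicate 2 and WT rosiglitazone replicate 1 were lowest, so the groups overlapped. Gapdh, which oxidises glyceraldehyde 3-phosphate, lay between 12.66 and 13.00 in all 10 arrays and Pgam1, a phosphoglycerate mutase, between 10.37 and 10.91. The 17 single-symbol Gapdh probe sets placed mouse 45 between -0.01 and 0.04 relative to the median of the others, and a further 24 Gapdh probe sets with several symbols were not used.

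Of the 6 carriers and regulators of flux, 4 were lowest in mouse 45, Slc16a3 was low in 2 KO mice and Pdk3 went the other way. Slc2a1, the glucose carrier GLUT1, read 11.01, 10.44 and 10.97 in KO rosiglitazone and 11.04 and 10.97 in KO vehicle arrays, against 10.85, 11.18 and 11.23 in WT rosiglitazone and 10.94 and 10.85 in WT vehicle arrays. Mouse 45 was lowest by more than the range of the others, and the WT rosiglitazone replicates 2 and 3 were highest. Pdk1, a pyruvate dehydrogenase kinase, read 7.92, 7.17 and 8.05 in KO rosiglitazone and 7.98 and 7.99 in KO vehicle arrays, against 7.83, 8.22 and 8.14 in WT rosiglitazone and 8.17 and 8.13 in WT vehicle arrays. Mouse 45 was lowest by more than the range of the others. Pfkfb3, which makes the activator of phosphofructokinase, read 5.91, 5.65 and 6.32 in KO rosiglitazone and 5.91 and 6.64 in KO vehicle arrays, against 6.31, 6.53 and 6.01 in WT rosiglitazone and 6.43 and 6.08 in WT vehicle arrays. Mouse 45 was lowest, and both arrays of mouse 46 were next. Slc16a3, the lactate exporter MCT4, read 7.11, 7.04 and 8.66 in KO rosiglitazone and 6.92 and 8.56 in KO vehicle arrays, against 7.87, 9.02 and 8.77 in WT rosiglitazone and 8.81 and 8.61 in WT vehicle arrays. The 2 arrays of mouse 46 and that of mouse 45 lay between 6.92 and 7.11, and the other 7 arrays, which include both of KO mouse 44, lay between 7.87 and 9.02. The KO minus WT difference of Slc16a3 was -0.95 (SE 0.50, adjusted p = 0.9993) in rosiglitazone and -0.97 (SE 0.61, adjusted p = 0.8622) in vehicle. Pdk3, a relative of Pdk1, was highest in mouse 45 (7.20), and Pfkfb4, a relative of Pfkfb3, was dim (mean 4.60, against a median of 4.50 over all tested values).

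Goblet cell markers stood apart in the same array, and markers of other epithelial cell types did so only in part. All 5 measured goblet cell markers (Muc2, Spink4, Clca1, Tff3 and Agr2) were highest in mouse 45, with a list mean of 8.76 there and of 3.78 and 6.72 in the other KO rosiglitazone arrays. It was 3.98 and 5.95 in KO vehicle arrays, 4.29, 5.54 and 5.01 in WT rosiglitazone arrays and 6.00 and 5.35 in WT vehicle arrays. Mouse 45 was also highest for 3 of 6 colonocyte, 3 of 5 proliferation and 3 of 5 stem cell markers, and lowest for Pparg (7.37). The colonocyte list mean was 6.24 there, below that of WT vehicle replicate 2 (6.32). Car1, the brightest colonocyte marker, read 10.79 there, near the low end of its range over the arrays (10.77 to 11.92). Slc9a3 read 5.12, inside its range (3.59 to 7.10). Mouse 45 was the highest of the 10 arrays for 12.4% of all tested probe sets, and for 18.2% of those with a mean above the median. Of the 8 epithelial markers it was highest for Vil1 (10.07) and Cdx1 (5.21) and lowest for Krt20 (6.12), and of the 5 leukocyte markers it was lowest for Cd68 (6.96). The part of these markers in the pattern was not tested. Fibroblast, endothelial and muscle markers stayed dim there too, with list means of 2.57, 2.29 and 2.91.

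The spread between arrays of a group was wider for hypoxia-response genes than for enzymes over all arrays, and less so without mouse 45. Over the 4 groups the within-group standard deviation (SD, 6 residual degrees of freedom) had a median of 0.37 for hypoxia-response genes, 0.28 for carriers and regulators and 0.18 for enzymes, against 0.19 for all probe sets. Without mouse 45 (5 degrees of freedom) the medians were 0.18, 0.19 and 0.13, against 0.18 for all probe sets. Ldha had the smallest SD of the members, 0.05, at the 0.623 percentile of all probe sets. Slc16a3 had the largest (0.79) and kept it without mouse 45 (0.81), with mouse 46 below mouse 44 in both treatments. Ndrg1 also stayed wide (0.50 without mouse 45, against 0.78 with it), with WT rosiglitazone arrays from 8.47 to 9.86.

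**Figure D3:**
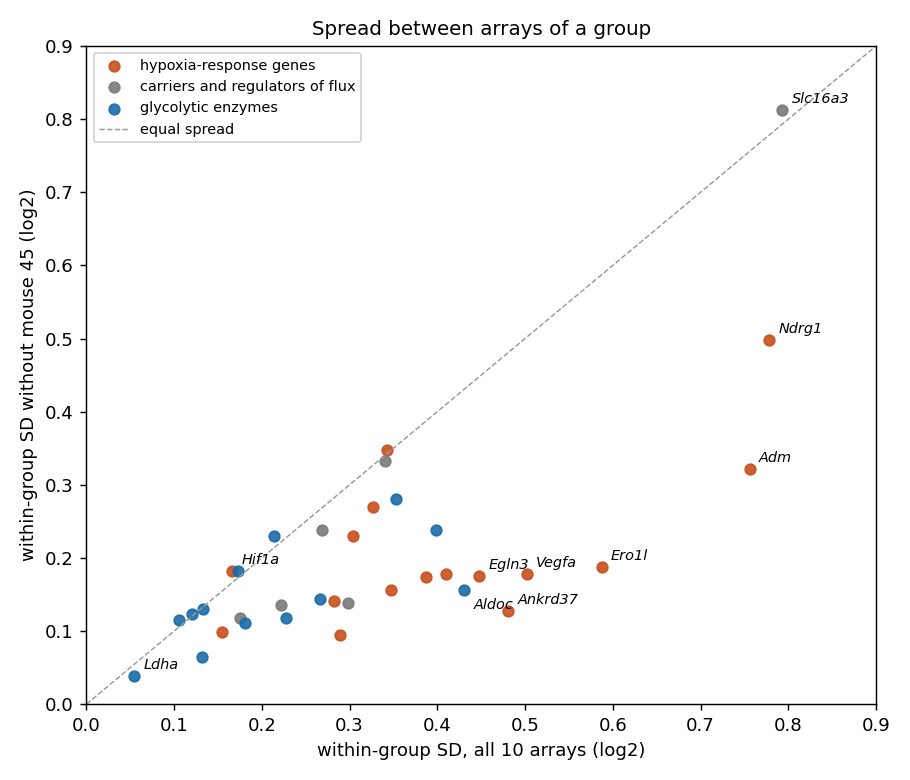
Within-group SD of each member on the log2 scale, over all 10 arrays (horizontal axis) and without mouse 45 (vertical axis). The dashed line marks equal spread. Slc16a3 lay just above the line (0.81 against 0.79), while Ero1l dropped to 0.19 against 0.59 and Vegfa to 0.18 against 0.50.

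In KO organoids the hypoxia-response genes differed by a median of -0.24 between rosiglitazone and vehicle, with 14 of 16 lower, and the enzymes by -0.04, with 10 of 13 lower. All 6 carriers and regulators were lower (median -0.17), and over all probe sets the median was -0.01, with 53.6% lower. Without mouse 45 the median was 0.03 for hypoxia-response genes, with 6 of 16 lower, and 0.05 for enzymes, with 3 of 13 lower. For carriers and regulators, in values added after the data were seen, it was -0.0086, with 3 of 6 lower. Among the hypoxia-response genes the smallest p-values were those of Bnip3, at a difference of -0.40 (SE 0.26, adjusted p = 1), P4ha1 at -0.42 (SE 0.30, adjusted p = 1) and Vegfa at -0.48 (SE 0.36, adjusted p = 1). None passed, and without mouse 45 the differences were -0.08, -0.04 and -0.0016. Of the enzymes, Aldoa differed by -0.25 (SE 0.14, adjusted p = 1), Pfkm by 0.19 (SE 0.18, adjusted p = 1) and Pfkp by -0.27 (SE 0.30, adjusted p = 1). Without mouse 45 they were -0.13, 0.23 and 0.07, with Pfkp on the other side of 0.

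In WT organoids the hypoxia-response genes had a median difference of 0.03 between rosiglitazone and vehicle, with 5 of 16 lower, and the enzymes one of 0.05, with 4 of 13 lower, against 0.01 and 45.7% lower over all probe sets. Single arrays turned these medians. Without WT rosiglitazone replicate 2 they were -0.0518 (10 of 16 lower) and -0.0311 (9 of 13 lower), and without WT vehicle replicate 2 they were -0.0682 (12 of 16 lower) and -0.0087 (8 of 13 lower). Without WT rosiglitazone replicate 3 the hypoxia-response median was -0.0220 (9 of 16 lower) and that of the enzymes 0.0177 (6 of 13 lower). The smallest p-values belonged to Higd1a at -0.38 (SE 0.26, adjusted p = 0.9998), Bnip3 at 0.23 (SE 0.26, adjusted p = 0.9998) and Hif1a at 0.11 (SE 0.16, adjusted p = 0.9998). Among enzymes they belonged to Pfkm at -0.18 (SE 0.18, adjusted p = 0.9998), Hk1 at 0.10 (SE 0.19, adjusted p = 0.9998) and Pfkl at 0.09 (SE 0.17, adjusted p = 0.9998). None of these differences passed the test.

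The 4 mice with both treatments allowed the response to be read within a mouse. For hypoxia-response genes the median of rosiglitazone minus vehicle was 0.09 in KO mouse 46 (15 of 16 higher), -0.02 in KO mouse 44 (8 of 16 higher), 0.07 in WT mouse 42 and 0.10 in WT mouse 47 (12 of 16 higher in each). For enzymes it was 0.03, 0.08, 0.12 and 0.12 (8, 11, 11 and 9 of 13 higher), and over all probe sets it lay between -0.02 and 0.01. Higher in all 4 mice were 4 of 13 enzymes (Hk1, Hk2, Pfkl and Aldoc), 2 of 16 hypoxia-response genes (P4ha2 and Car9) and 1 of 6 carriers and regulators (Slc16a3), against 6.33% of probe sets. Hk2, the hexokinase known for induction by HIF, differed by 0.15 and 0.31 in KO mice 46 and 44 and by 0.22 and 0.23 in WT mice 42 and 47. Slc16a3 differed by 0.19 and 0.09 in the KO mice and by 0.21 and 0.16 in the WT mice, although its level in mouse 46 was far below that in mouse 44. No member was lower in all 4 mice, against 6.98% of probe sets.

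**Figure D4:**
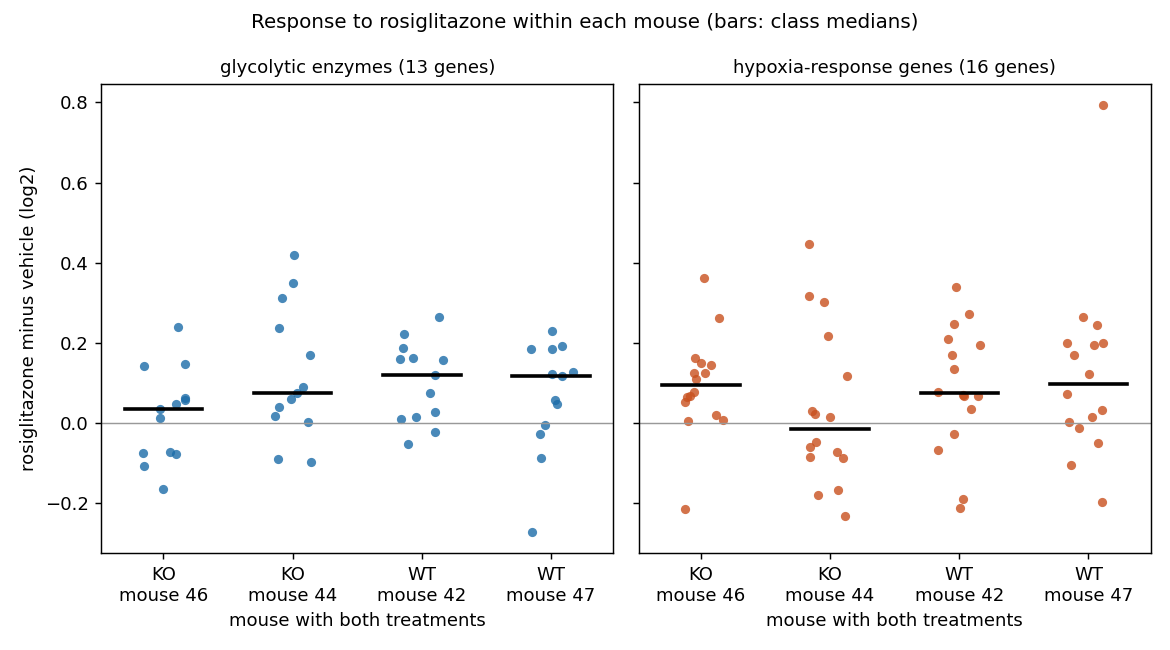
Rosiglitazone minus vehicle on the log2 scale within each of the 4 mice that gave both arrays, for glycolytic enzymes (left) and hypoxia-response genes (right). Points are genes and bars class medians, which lay between -0.02 and 0.12. The highest point is Ndrg1 in WT mouse 47 (0.79).

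The KO response minus the WT response had a median of -0.27 for hypoxia-response genes, with 15 of 16 below 0, and of -0.13 for enzymes, with 10 of 13 below 0, against -0.03 and 55.4% over all probe sets. Without mouse 45 the medians were 0.01, with 7 of 16 below 0, and 0.04, with 4 of 13 below 0. The smallest p-values of this difference were those of Bnip3 at -0.63 (SE 0.37, adjusted p = 0.9999), Higd1a at 0.60 (SE 0.37, adjusted p = 0.9999) and Ndrg1 at -0.93 (SE 0.78, adjusted p = 0.9999). Among enzymes they were those of Aldoa at -0.32 (SE 0.20, adjusted p = 0.9999), Pfkm at 0.37 (SE 0.26, adjusted p = 0.9999) and Pfkp at -0.32 (SE 0.42, adjusted p = 0.9999). Without mouse 45 Ndrg1 was at -0.30 and Pfkp at 0.02.

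In vehicle, the median difference between KO and WT organoids was 0.03 for hypoxia-response genes, with 7 of 16 lower in KO, and 0.01 for enzymes, with 6 of 13 lower, against 0.03 and 44.4% lower over all probe sets. For carriers and regulators it was -0.09, with 4 of 6 lower. Higd1a, which is dim on this array, read 4.15, 3.67 and 3.95 in KO rosiglitazone and 3.79 and 3.63 in KO vehicle arrays, against 3.70, 4.70 and 4.49 in WT rosiglitazone and 4.77 and 4.60 in WT vehicle arrays. The KO vehicle arrays lay below both WT vehicle arrays, and WT rosiglitazone replicate 1, from mouse 48, read as low as the KO arrays. The vehicle difference was -0.97 (SE 0.29, adjusted p = 0.846), at an unadjusted p of 0.00640. Egln1 differed by 0.24 (SE 0.26, adjusted p = 0.8967) and P4ha1 by 0.29 (SE 0.33, adjusted p = 0.9045). Among enzymes Pkm differed by -0.18 (SE 0.14, adjusted p = 0.8721), Pfkm by -0.18 (SE 0.20, adjusted p = 0.8969) and Ldha by -0.12 (SE 0.13, adjusted p = 0.8969).

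In rosiglitazone, 16 of 16 hypoxia-response genes and 6 of 6 carriers and regulators were lower in KO than in WT organoids, with medians of -0.26 and -0.30. The enzymes had a median of -0.09, with 11 of 13 lower, against 0.00 and 49.5% lower over all probe sets. Without mouse 45 the hypoxia-response genes had a median of 0.11, with 7 of 16 lower, and the enzymes one of -0.01, with 7 of 13 lower. The carriers and regulators had one of -0.13 without it, with 6 of 6 lower. Ndrg1 differed by -1.11 (SE 0.49, adjusted p = 0.9993), at an unadjusted p of 0.0468, and by -0.48 without mouse 45. Bnip3 differed by -0.52 (SE 0.24, adjusted p = 0.9993) and Vegfa by -0.58 (SE 0.33, adjusted p = 0.9993), or by -0.20 and -0.11 without mouse 45. Among enzymes Aldoa differed by -0.25 (SE 0.13, adjusted p = 0.9993), Ldha by -0.12 (SE 0.10, adjusted p = 0.9993) and Pfkl by -0.17 (SE 0.15, adjusted p = 0.9993). Without mouse 45 these were -0.13, -0.08 and -0.02. This comparison and that of rosiglitazone with vehicle in KO organoids share the KO rosiglitazone arrays.

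**Figure D5:**
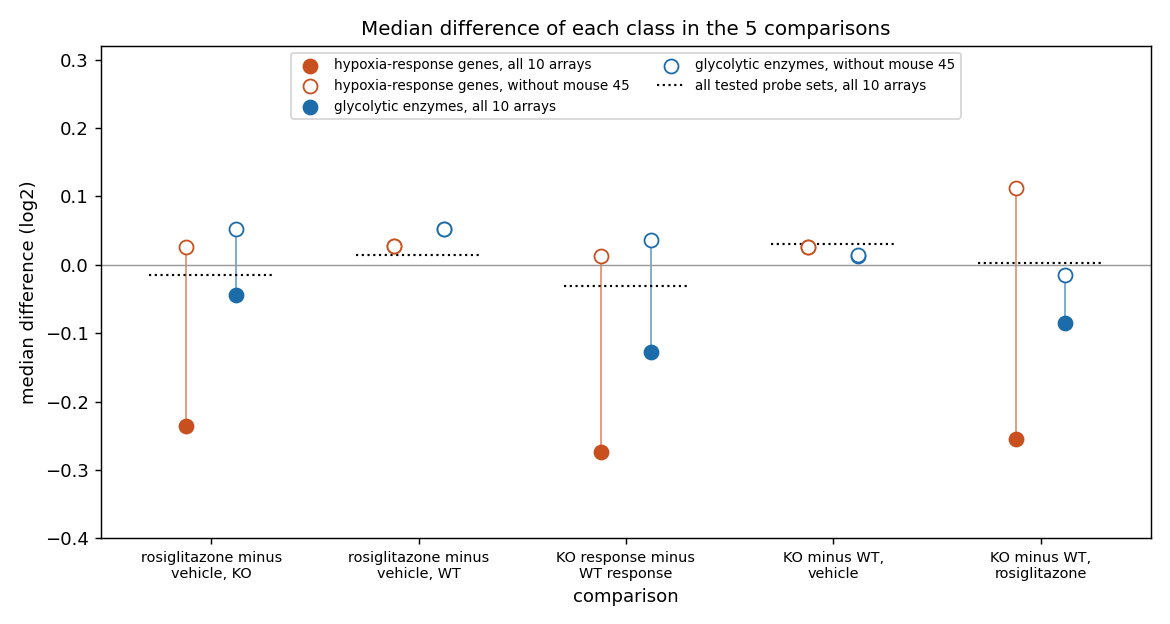
Median log2 difference of the hypoxia-response genes (orange) and glycolytic enzymes (blue) in each comparison, over all 10 arrays (filled) and without mouse 45 (open), with the median of all probe sets as a dotted line. In the 3 comparisons that use the KO rosiglitazone arrays the hypoxia-response medians were -0.24, -0.27 and -0.26 with mouse 45, and 0.03, 0.01 and 0.11 without it.

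Other genes of the same pathways, taken from lists of further carbohydrate genes (36 of 42 matched) and further hypoxia pathway genes (30 of 31 matched), gave 0 calls in each of the 5 comparisons (limma, adjusted over all probe sets). At an unadjusted p under 0.05 there were, in the order used above, 2, 2, 1, 2 and 4 of the carbohydrate genes and 2, 0, 2, 3 and 0 of the hypoxia genes. Over all 23099 probe sets there were 706, 229, 536, 1314 and 1110. Pdk4, a pyruvate dehydrogenase kinase known as a PPAR target, read 2.18, 2.36 and 2.63 in KO rosiglitazone and 2.43 and 2.79 in KO vehicle arrays, against 2.34, 3.80 and 4.26 in WT rosiglitazone and 2.45 and 2.54 in WT vehicle arrays. The WT rosiglitazone replicates 2 and 3 stood above all other arrays, and replicate 1, from mouse 48, did not. Its WT response was 0.97 (SE 0.43, adjusted p = 0.9998) and its KO minus WT difference in rosiglitazone -1.07 (SE 0.39, adjusted p = 0.9624). Pdk4 was dim (mean 2.78, against a median of 4.50 over all tested values). Among the carbohydrate genes Pck2 had the smallest p for the WT response, at 0.34 (SE 0.13, adjusted p = 0.9998). For KO against WT in vehicle Gpd1 had the smallest p, at -1.59 (SE 0.56, adjusted p = 0.846). Angptl4, a lipase inhibitor induced by both hypoxia and PPARs, read 3.06, 4.79 and 3.31 in KO rosiglitazone and 2.92 and 3.50 in KO vehicle arrays, against 2.89, 4.88 and 5.93 in WT rosiglitazone and 3.44 and 3.52 in WT vehicle arrays. WT rosiglitazone replicates 2 and 3 and KO rosiglitazone replicate 2, from mouse 45, were the 3 highest, the last in an array where most hypoxia-response genes were lowest. The WT response of Angptl4 was 1.08 (SE 0.74, adjusted p = 0.9998), and this gene was dim too (mean 3.82). Car12, a carbonic anhydrase like Car9, read 6.97, 7.36 and 6.93 in KO rosiglitazone and 6.79 and 6.86 in KO vehicle arrays, against 7.10, 7.56 and 8.21 in WT rosiglitazone and 7.63 and 8.09 in WT vehicle arrays. KO vehicle arrays lay below both WT vehicle arrays, at a difference of -1.04 (SE 0.31, adjusted p = 0.846). Vhl, the ubiquitin ligase subunit that removes hydroxylated HIF, differed by -0.51 (SE 0.18, adjusted p = 0.846) between KO and WT in vehicle. In rosiglitazone its KO arrays (6.03, 5.97 and 6.17) overlapped the WT arrays (5.72, 6.27 and 6.06).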

How the data were processed

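RNA from the organoids was hybridised to Affymetrix whole-transcript arrays. The deposited table holds log2 expression values that the authors made by RMA, per the submitters' processing notes; its version and chip definition are not given in the sources used here. Values ran from 0.73 to 13.55, with array medians from 3.54 to 3.72, and arrays give no count depth, so their number limits the precision. The platform annotation listed 23099 of 35556 probe sets, and these were tested; 12457 were left out. Ero1l was matched through its Entrez identifier to Ero1a.

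Group means were fitted over all 10 arrays with limma 3.58.1 in R 4.3.3 (lmFit, contrasts, eBayes), two-sided, with Benjamini-Hochberg adjustment over 23099 probe sets and a threshold of 0.05; the fit was tested on simulated data. Class medians were described, not tested. Promoter windows came from RefSeq (GRCm38.p6). They were first chosen by the most motifs; this was replaced by the most 5′ start because it favoured genes with several windows, and both counts are given. Alternatives were the mouse as random block (statmod 1.5.0) or fixed block, the mice with both treatments, leaving out each array in turn or mouse 46, centring, repeated quantile normalization, bright probe sets, the groups compared alone, and other probe sets. Labels name the donor mouse, and 4 of 6 mice gave both treatments. To check the pairing, the vehicle difference of WT mice 42 and 47 was set against their rosiglitazone difference across 23099 probe sets (r = 0.44), and likewise for KO mice 46 and 44 (r = 0.487). Replicate numbers do not mark the mouse. Within a group each array is 1 mouse, so the p-values rest on the spread between the mice of a group. The main fit had no mouse block and treated both arrays of a mouse as independent. Its p-values for rosiglitazone against vehicle therefore do not measure the spread of the response within a mouse.

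The members and lists were chosen with earlier results of these data known. Named genes are the 3 with the smallest p per class and comparison, Slc2a1, Hif1a, Pfkfb3, Pdk1, Vegfa, Ldha and Pkm, and up to 4 genes of each other list; further genes were named after their values were seen.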

Additional observations from a re-analysis of the deposited data

Results flagged for a closer look

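For 5 of 35 members rosiglitazone minus vehicle ran one way in both KO mice with both treatments and the other way in both WT mice. These were 3 of 13 enzymes, 1 of 6 carriers and regulators and 1 of 16 hypoxia-response genes (6.25%). The count is close to the share over all probe sets, 11.8%. Higd1a was higher after rosiglitazone in KO mice 46 and 44 (0.36 and 0.32) and lower in WT mice 42 and 47 (-0.07 and -0.10). The KO response minus the WT response over all arrays was 0.60 (limma, adjusted p = 0.9999). Aldoa was lower in the KO mice (-0.17 and -0.10) and higher in the WT mice (0.01 and 0.19), at a difference of responses of -0.32. Pdk3 was lower in the KO mice (-0.01 and -0.36) and higher in the WT mice (0.17 and 0.10), at -0.11. Gapdh was lower in the KO mice (-0.08 and -0.09) and higher in the WT mice (0.02 and 0.05), although over all arrays the difference was 0.0109. Pkm was higher in the KO mice (0.06 and 0.04) and lower in the WT mice (-0.0230 and -0.0044), at 0.0914. None of these differences of responses passed the test (adjusted p = 0.9999 for each).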

How the results depend on the processing

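No member was called under any alternative. Of the named genes' alternative values, 517 of 527 kept their direction, and none passed the test. Leaving out an array of a group outside a comparison cannot change its difference, so part of this agreement was fixed in advance. For KO against WT in rosiglitazone 5 probe sets were called, none of them members. The number called was 16 on the mice with both treatments, and 1 without mouse 46, with repeated quantile normalization or with the groups compared alone. It ran from 1 to 23 on leaving out an array, 23 without WT rosiglitazone replicate 1 and 3 without KO rosiglitazone replicate 2. For KO against WT in vehicle it was 0, against 6 on the mice with both treatments, 2 with centred arrays, 1 with repeated quantile normalization or bright probe sets, 4 with the groups compared alone, and 0 to 6 on leaving out an array (6 without WT rosiglitazone replicate 1). With the mouse as a random replicate block, 1 probe set was called for rosiglitazone in KO and 1 for KO against WT in vehicle, and the hypoxia-response median for rosiglitazone in KO was -0.13, or 0.03 with a fixed block, in which mouse 45 carries no information. A fixed block cannot be estimated for the genotype comparisons. That median ran from -0.42 to 0.03 on leaving out an array, and for KO against WT in rosiglitazone from -0.42 to 0.11, the highest without KO rosiglitazone replicate 2.

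On leaving out an array, the enzyme median ran from -0.14 to 0.05 for rosiglitazone in KO and from -0.22 to 0.04 for the difference of responses, where the hypoxia-response median ran from -0.48 to 0.01. The upper ends, without KO rosiglitazone replicate 2, turned the sign of these medians. For rosiglitazone in WT the medians ran from -0.07 to 0.12 for hypoxia-response genes and from -0.03 to 0.10 for enzymes.

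Some named genes reversed. Pfkp for rosiglitazone in KO was 0.0656 with the fixed replicate block and on the mice with both treatments, and ran from -0.5653 to 0.0656 on leaving out an array. Its difference of responses ran from -0.6154 to 0.0155. Pfkm ran from -0.0578 to 0.4426 for rosiglitazone in KO and from -0.4340 to 0.0663 for KO against WT in vehicle, where KO vehicle replicate 2 turned both. Without WT vehicle replicate 2, rosiglitazone in WT gave -0.0008 for Hk1 (up to 0.2047) and -0.0034 for Hif1a (up to 0.2207). With centred arrays Ldha for KO against WT in vehicle was 0.0115. Centring moved the median of all probe sets there to 0.16, against 0.03, and the share lower to 23.8%, against 44.4%. In rosiglitazone that share was 28.9%, against 49.5%, with an enzyme median of 0.0012, against -0.0852, and for rosiglitazone in WT it was 33.4%, against 45.7%. Measured from that all-probe-set median, the class medians are the same under centring (-0.09 for enzymes and -0.26 for hypoxia-response genes, KO against WT in rosiglitazone). The causes were not tested. No member used carries several symbols, so leaving those out changed nothing, and the difference of responses uses all groups, so fitting those alone is the same fit.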

Other observations

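Some further hypoxia pathway genes were also low in the array of mouse 45, as seen after their values were examined. It was the lowest of the 10 arrays for 12 of 30 on that list (40%) and for 7 of 36 further carbohydrate genes (19.4%), against 14.3% of all probe sets. The median of the hypoxia list relative to the median of the other arrays was -0.09, against -0.03 for all probe sets. For 3 of 30 the distance below the next lowest array exceeded the range of the other 9, against 0.602% of all probe sets. These 3 were Fam162a, Hmox1 and Kdm3a. Plod2, a collagen lysyl hydroxylase, read 4.86 there and 5.87 to 6.93 in the others, a distance (1.01) less than their range (1.06). Fam162a, a mitochondrial HIF target, read 8.16 there and 8.91 to 9.55 in the others. Hmox1, the heme oxygenase, read 6.13 there and 6.94 to 7.68 in the others. Kdm3a, a histone demethylase known as a HIF target, read 7.41 there and 7.85 to 8.11 in the others. Other members of that list went the other way: Arnt2, a relative of the HIF partner Arnt, read 5.56 there and 3.52 to 4.60 in the others, and Tfrc, the transferrin receptor, read 9.04 there and 8.45 to 8.80 in the others.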
